A study of Mus musculus with 12 samples.

Results

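The genes described here are 48 genes of the cell division cycle, which are 48 of the 34347 genes in the deposited table of a mouse tooth RNA-seq experiment. They were taken by name, each matched 1 row of the table, and all 48 passed the filter on low counts in every comparison. They were placed in 3 classes by role, with 13 genes of G1 (cyclins, their kinases, the inhibitors and the Rb1 and E2f1 pair), 13 of DNA replication and 22 of mitosis. The libraries come from wild-type C57BL/6 embryos, and each is bulk RNA of the dental epithelium or the dental mesenchyme at the embryonic days E11.5 or E13.5, untreated, which makes 4 groups of 3 libraries. The stages were chosen because the capacity to induce a tooth is held by the epithelium at the earlier stage and by the mesenchyme at the later one. By the methods of the study the piece dissected was the mandible at E11.5 and the tooth germ at E13.5, incisor and molar regions were both collected, and the tissues were parted with dispase. A difference between the stages and a difference in the piece dissected therefore cannot be told apart. The labels speak of pooled RNA, the number of embryos behind each library is not given in the sources used here, and all p-values measure the spread between these libraries.

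A dividing cell passes from G1 through DNA synthesis (S phase) and G2 to mitosis. In G1 the D-type cyclins activate the kinases Cdk4 and Cdk6, and the E-type cyclins activate Cdk2, and these kinases phosphorylate the retinoblastoma protein Rb1, which then releases E2F transcription factors such as E2f1. Inhibitors of the Cip/Kip family (Cdkn1a and Cdkn1b) and of the Ink4 family (Cdkn2c) hold the kinases back. E2F factors turn on genes of replication, and a later wave, bound by B-Myb (Mybl2) and FoxM1, turns on genes of mitosis. In the developing tooth the epithelium thickens, then buds into a condensing mesenchyme, and cells of both tissues divide at these stages.

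Promoter sequence was read to show what the classes share apart from their names. E2F-like sites (the letters TTCCCGC, and also TTCGCGC, and also TTGCCGC, and also TTGGCGC), the CHR element of late cell cycle genes (TTTGAA or TTTAAA) and the CCAAT box were searched on both strands in the 250 bases before each start site in a RefSeq table of build GRCm38.p6, the same build as the mm10 of the deposited table. 38 of the 48 genes had an entry, with 42 windows in all. E2F-like letters were in 58.3% of the 12 windows of replication genes, in 16.7% of the 18 of mitosis genes, in 16.7% of the 12 of G1 genes and in 7.89% of all 32851 windows of the table. CHR letters were in 55.6% of the mitosis windows, 25% of the replication windows, 16.7% of the G1 windows and 25.2% of all windows. The CCAAT box was in 83.3% of the replication windows and 83.3% of the mitosis windows, against 25% of the G1 windows and 33.8% of all. CHR and CCAAT stood together in 50.0% of the mitosis windows and in 8.78% of all windows. An E2F-like match can overlap a CCAAT match or a second E2F-like match, a match of letters is not a bound site, and promoter activity was not measured. The 150 bases before the start are printed for 2 replication genes, 3 mitosis genes that hold CHR and CCAAT letters together and 1 inhibitor that holds an E2F-like match and moved the other way, with every match in capitals and the start site after the last base.
Mcm6, chr1:128359706-128359855, minus strand: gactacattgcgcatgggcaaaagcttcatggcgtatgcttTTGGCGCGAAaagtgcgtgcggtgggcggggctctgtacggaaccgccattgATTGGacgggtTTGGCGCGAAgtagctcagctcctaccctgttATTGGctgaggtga
Rrm1, chr7:102441545-102441694, plus strand: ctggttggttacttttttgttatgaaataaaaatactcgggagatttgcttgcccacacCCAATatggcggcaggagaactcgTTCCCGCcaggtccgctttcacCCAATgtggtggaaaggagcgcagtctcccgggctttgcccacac
Cdk1, chr10:69352913-69353062, minus strand: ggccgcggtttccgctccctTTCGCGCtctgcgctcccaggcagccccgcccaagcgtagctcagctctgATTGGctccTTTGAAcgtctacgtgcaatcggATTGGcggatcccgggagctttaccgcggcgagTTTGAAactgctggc
Top2a, chr11:99024190-99024339, minus strand: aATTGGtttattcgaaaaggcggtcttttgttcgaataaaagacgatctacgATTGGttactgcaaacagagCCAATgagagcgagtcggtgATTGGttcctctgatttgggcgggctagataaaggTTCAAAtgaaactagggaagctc
Ccnb1, chr13:100786487-100786636, minus strand: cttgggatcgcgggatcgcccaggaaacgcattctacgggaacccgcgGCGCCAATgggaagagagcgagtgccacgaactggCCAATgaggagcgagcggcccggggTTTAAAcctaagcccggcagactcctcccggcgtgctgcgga
Cdkn2c, chr4:109666757-109666906, minus strand: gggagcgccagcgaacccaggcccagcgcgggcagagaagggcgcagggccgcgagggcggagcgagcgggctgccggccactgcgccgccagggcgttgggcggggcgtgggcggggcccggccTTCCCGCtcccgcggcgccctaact
The stretch of Mcm6 has overlapping E2F-like matches at 2 places and CCAAT boxes, that of Rrm1 has an E2F-like match between CCAAT boxes, and those of Cdk1, Top2a and Ccnb1 join CCAAT boxes with a CHR element. The start site of Cdkn2c in RefSeq lies inside the span that the deposited table gives for the gene, so its whole printed stretch does too. In 31 of the 42 windows the bases after the RefSeq start were found near the start of a GENCODE transcript of the gene. The windows of Cdkn2c and Mcm6 are not among those 31, and all 42 entered the shares above.

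The libraries hold 70134554 to 79349382 estimated counts each. 4 libraries have no number in their bracketed name (epithelium replicate 3 and mesenchyme replicate 1 at both stages), and each differed from the other libraries of its group by a median of 11.3 to 22% over genes with high counts, whereas the other pairs differed by 4.22 to 8.72%. The sequencing summary of the study sets the same 4 libraries apart from the others in read quality, and the labels name no batch. E13.5 epithelium replicate 3 stands apart from its labels. The 12 epithelium markers summed to 693 FPKM in it (fragments mapped to a gene, scaled to its exon length and to all mapped fragments of the library) against 2320 and 3410 FPKM in replicates 1 and 2, and the 12 mesenchyme markers to 1180 FPKM against 491 and 311 FPKM. Counts of calls, and the values of named genes that lost or gained a call, turned in sign or moved in size, are also given without that library. No marker of the 9 cell type lists was at 0 in every library of a group. Strand is not stated for these libraries, and 17 of the 48 genes share exon bases with another gene of the GENCODE annotation of that build, in 16 of them with one on the opposite strand. That share was largest for Ccnd1 (23.4% of its exon bases, with LTO1), Cdk4 (19.7%, with Tspan31) and Ccne2 (17.4%, with Ints8), and reads of such partners cannot be told apart.

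As a check of the label, the 3 marker genes of dividing cells were read in every library. Mki67, which encodes the Ki-67 protein of cycling cells, was at 30.5, 31.4 and 44.9 FPKM in E11.5 epithelium and at 58.7, 56.3 and 57.1 FPKM in E11.5 mesenchyme. The E13.5 libraries held 38.5, 39.6 and 27.5 FPKM of it in epithelium and 35.8, 21.2 and 20.4 FPKM in mesenchyme. All 12 libraries thus held Mki67 RNA, and the mesenchyme libraries of the stages did not overlap. Top2a, the topoisomerase that untangles sister chromatids, ranged from 35.4 to 92.4 FPKM over the 12 libraries, and Aurkb, the kinase of the chromosomal passenger complex, from 16.9 to 33.6 FPKM. For both genes the highest value was in E11.5 mesenchyme. Per length, Cdk4 was the most abundant of the 48 genes, with 253 ± 28.4 FPKM in E11.5 epithelium and 245 ± 22.2 FPKM in E11.5 mesenchyme (SD, n = 3), ahead of the sliding clamp Pcna with 144 ± 8.19 and 150 ± 10.3 FPKM. The lowest group means belonged to Cdkn2c (1.67 ± 0.149 FPKM), Cdkn1a (1.95 ± 0.912 FPKM) and Rb1 (2.05 ± 0.146 FPKM), all 3 in E11.5 mesenchyme.

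**Figure D1:**
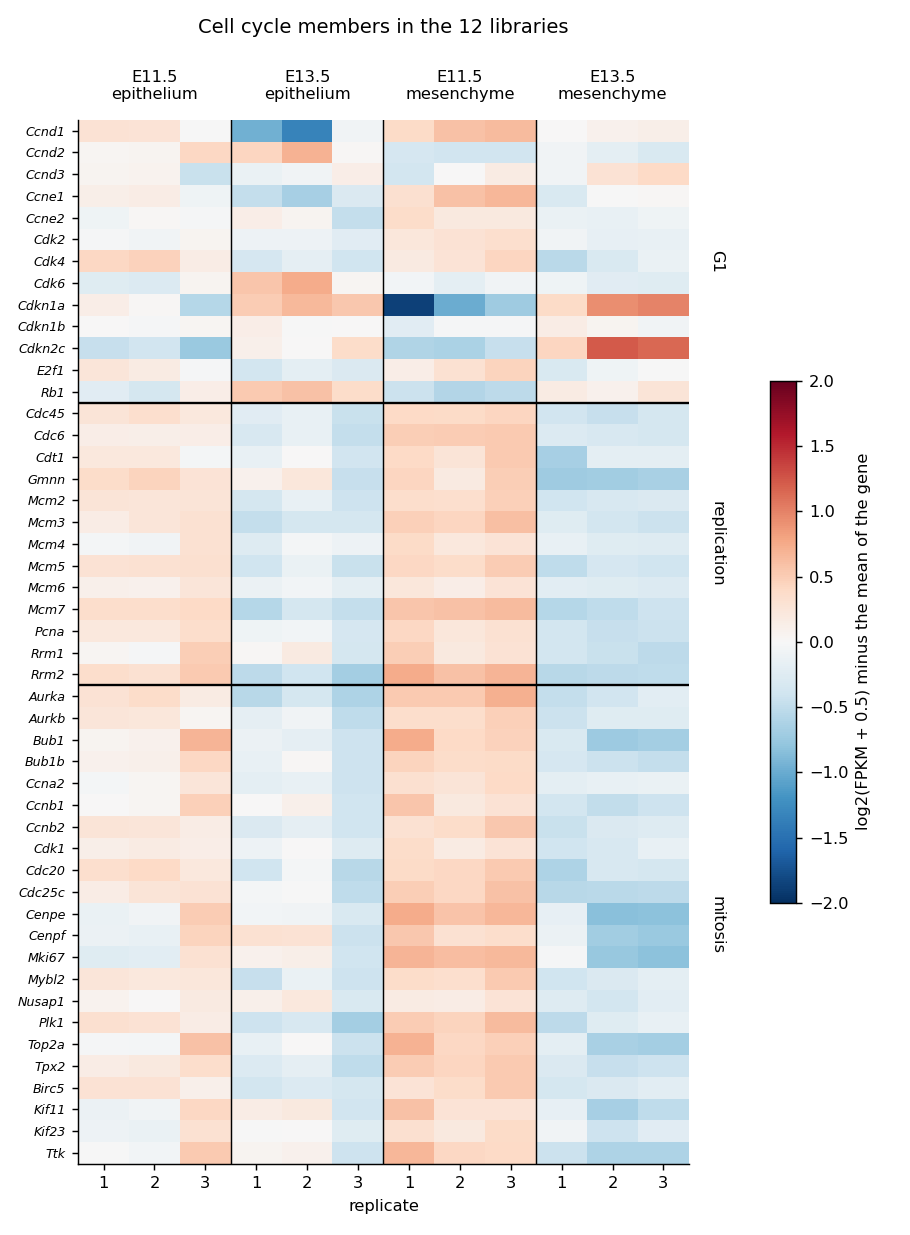
Level of each of the 48 genes (rows, grouped as G1, replication and mitosis) in the 12 libraries (columns, by group and replicate), as log2(FPKM + 0.5) minus the mean of the gene over the 12 libraries, with red above and blue below that mean. The replication and mitosis rows are mostly red at E11.5 and blue at E13.5, most evenly so in mesenchyme. Cdkn2c is the reverse in both tissues and Cdkn1a in mesenchyme, with Cdkn1a in E11.5 mesenchyme replicate 1 the lowest cell at -1.87.

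Over the whole set, the fall between the stages was broadest in the mesenchyme. The median replication gene stood 0.34 to 0.50 (log2 FPKM) above its own mean over all libraries in the E11.5 mesenchyme libraries and at -0.39 to -0.36 in those of E13.5. For the median mitosis gene the same values were 0.37 to 0.49 and -0.42 to -0.34. The epithelium went from 0.21 to 0.30 at E11.5 to between -0.41 and -0.14 at E13.5 for replication genes, and from between 0.07 and 0.29 to between -0.42 and -0.02 for mitosis genes. In both classes the lowest E13.5 epithelium library was replicate 3. The median G1 gene stayed between -0.07 and 0.17 in all 12 libraries.

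In the mesenchyme, 41 of the 48 genes fell from E11.5 to E13.5 and 3 rose (edgeR quasi-likelihood test, adjusted p under 0.05 over 20271 genes), whereas 17% of all genes tested fell and 22% rose. All 13 replication genes and all 22 mitosis genes fell, both with a median log2 fold change of -0.87, and the G1 genes were divided, with 6 that fell and 3 that rose. Over the 48 genes the median log2 fold change was -0.77, against 0.01 over all genes tested. The libraries of the stages did not overlap for 41 genes that were lower at E13.5 and 4 that were higher, against 21.9% and 29.1% of all genes. Falls of 2-fold or more were found for 9 of the genes (3 of replication and 6 of mitosis) and rises of that size for Cdkn1a and Cdkn2c, where 3.09% of all genes fell and 13.1% rose by as much. Fewer dividing cells and less of these RNAs per dividing cell cannot be told apart in bulk libraries. Markers of other cell types moved between the same groups. 8 of 9 chondrocyte and osteoblast markers rose, and their summed level went from 54 to 72.2 FPKM at E11.5 to between 305 and 475 FPKM at E13.5. 7 of 8 skeletal muscle markers rose, from sums of 24.8 to 73.8 FPKM to sums of 229 to 451 FPKM, as did 7 of 8 macrophage markers (10.5 to 16.4, then 23.7 to 60.6 FPKM), 7 of 8 endothelial markers (58.6 to 65.1, then 90.3 to 102 FPKM), 6 of 12 neuron markers (46.1 to 58.7, then 75 to 118 FPKM) and 5 of 7 glial markers (8.35 to 10.9, then 25.6 to 39 FPKM). Of 8 erythroid markers 5 fell and 1 rose, with sums of 4530 to 9700 FPKM and then 2550 to 4540 FPKM. Of 12 mesenchyme markers 8 rose and 3 fell, with sums of 526 to 707 FPKM and then 1480 to 1840 FPKM. 8 of 12 epithelium markers rose in these mesenchyme libraries as well, from sums of 27.7 to 31.6 FPKM to sums of 84.3 to 125 FPKM. The part of these markers in the fall of the cell cycle genes was not tested.

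In the epithelium, 14 of the 48 genes fell from E11.5 to E13.5 and none rose (20467 genes tested, of which 3.01% fell and 5.47% rose). The genes that fell were Cdk4 in G1, 6 replication genes (Cdc45, Mcm2, Mcm3, Mcm5, Mcm7 and Rrm2) and 7 mitosis genes (Aurka, Birc5, Ccnb2, Cdc20, Mybl2, Plk1 and Tpx2). All 14 also fell in the mesenchyme, where they are 14 of the 41. None fell by 2-fold or more, and the median log2 fold change of the 48 genes was -0.39, against 0.05 over all genes. At an unadjusted p under 0.05 there were 26 lower genes and 4 higher, against 10.4% and 15.7% of all genes. The libraries did not overlap for 28 lower and 3 higher genes, against 14.5% and 18.2% of all genes. DESeq2 called 17 genes lower and 3 higher (Cdkn1a, Cdkn2c and Rb1). In 1 fit over all 12 libraries 23 were lower and 3 higher (Cdk6, Cdkn2c and Rb1). The number of calls changed when single libraries were left out. With E13.5 epithelium replicate 3 left out, 16 genes fell, with Ccnd1 and Ccne1 added to the same 14, and 2 rose (Cdk6 and Rb1), beside 7.21% and 10% of all genes. No gene was called without E11.5 epithelium replicate 1, without E11.5 epithelium replicate 2 or without E13.5 epithelium replicate 1, and 10 were called without E13.5 epithelium replicate 2. Neuron markers moved between these groups too, with sums of 232, 229 and 83.3 FPKM at E11.5 and of 53.5, 28 and 74.8 FPKM at E13.5, and 3 of 12 fell. Of 8 erythroid markers 3 fell (sums of 2480 to 5970 FPKM, then 1340 to 2770 FPKM). 2 of 12 mesenchyme markers rose (506, 492 and 344 FPKM, then 491, 311 and 1180 FPKM), as did 2 of 9 chondrocyte and osteoblast markers (63.3, 60.7 and 71.4 FPKM, then 43.4, 24.8 and 119 FPKM) and 1 of 8 skeletal muscle markers (105, 104 and 37.8 FPKM, then 140, 137 and 282 FPKM). In these 3 lists the highest of the 6 libraries was E13.5 epithelium replicate 3. Of 7 glial markers 1 rose and 1 fell, 4 of 12 epithelium markers rose, and no endothelial or macrophage marker passed. Without that library 4 of 8 endothelial markers fell. The part of these markers was not tested.

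**Figure D2:**
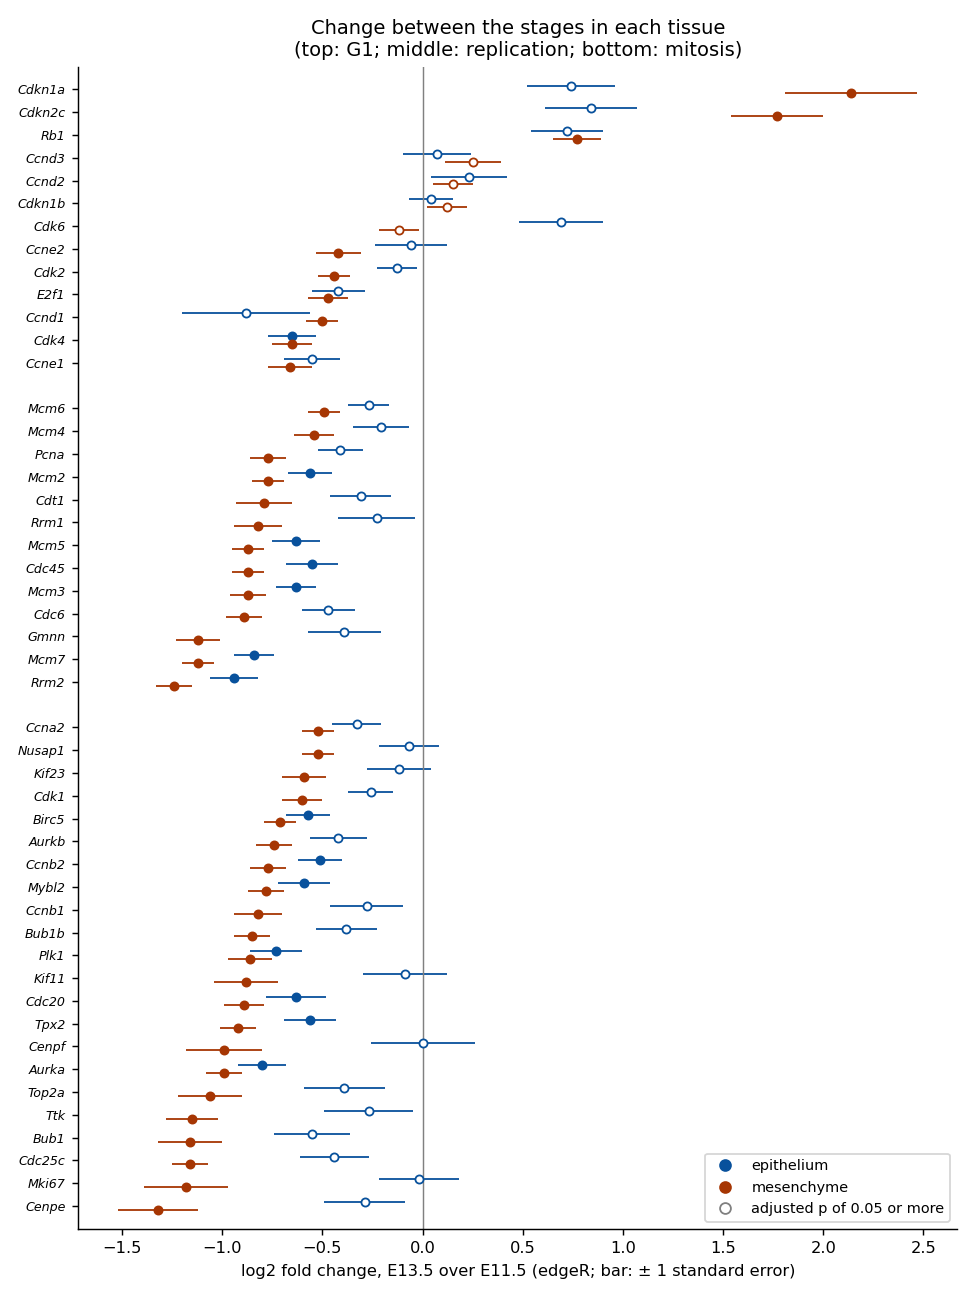
Log2 fold change of each of the 48 genes from E11.5 to E13.5 (horizontal axis, edgeR, bars of 1 standard error), in epithelium (blue) and mesenchyme (brown), with filled points for an adjusted p under 0.05. In mesenchyme all 35 replication and mitosis genes are filled and left of 0, and in epithelium 13 of them are.

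Between the tissues at E11.5, 39 of the 48 genes were at a lower level in epithelium than in mesenchyme, but most differences were within the spread of the libraries. 2 genes passed the test over 20063 genes: Ccnd2 was higher in epithelium and Ccne1 lower, where 4.75% of all genes were higher and 1.63% lower. At an unadjusted p under 0.05 there were 3 higher and 11 lower, against 12.2% and 7.75% of all genes. All 22 mitosis genes had a negative log2 fold change, with a median of -0.20, and 12 of the 13 replication genes did, with a median of -0.10, against 0.01 over all genes. Of all 20063 genes 9795 had a negative value, and signs of genes read in the same libraries are not independent. The libraries did not overlap for 22 lower and 4 higher genes, against 14.1% and 12.6% of all genes. This count depended on E11.5 epithelium replicate 3. Leaving it out gave 13 lower genes (Ccna2, Ccnd1, Ccne1, Cdk2, Cdc6, Cenpe, Cenpf, Mcm3, Mki67, Top2a, Tpx2, Kif23 and Ttk) and 2 higher (Ccnd2 and Cdkn1a), beside 7.53% and 10.3% of all genes, and leaving out any other library gave none. With the libraries without a number as a covariate there were 21 lower and 3 higher, beside 9.20% and 10.6% of all genes. Neuron markers differed the same way as that library, with sums of 232 and 229 FPKM in E11.5 epithelium replicates 1 and 2, 83.3 FPKM in replicate 3 and 46.1 to 58.7 FPKM in E11.5 mesenchyme, and 7 of 12 were higher in epithelium. 2 of 7 glial markers were higher in epithelium too, with sums of 51.2 and 49.7 FPKM in replicates 1 and 2, 23.1 FPKM in replicate 3 and 8.35 to 10.9 FPKM in mesenchyme. Of 8 macrophage markers 3 were higher in epithelium (18.8 to 24.1 FPKM against 10.5 to 16.4 FPKM) and of 8 endothelial markers 4 were lower (41.4 to 45.7 FPKM against 58.6 to 65.1 FPKM). The 12 mesenchyme markers summed to 506, 492 and 344 FPKM in E11.5 epithelium against 526, 652 and 707 FPKM in E11.5 mesenchyme, and only 3 of them were lower in epithelium. All 12 epithelium markers were higher there (282 to 335 FPKM against 27.7 to 31.6 FPKM). The part of these markers was not tested.

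At E13.5 no gene of the 48 passed the test between the tissues over 20584 genes, where 1.62% of all genes were higher in epithelium and 0.204% lower. At an unadjusted p under 0.05 there were 11 higher and 2 lower, against 2501 higher and 2364 lower of all 20584 genes (23.6% in either direction). limma on log2 FPKM also called none, and DESeq2 called Ccnd2, Cdk6 and Gmnn higher and Cdkn2c lower. With E13.5 epithelium replicate 3 left out, 12 genes were higher in epithelium (Ccnd2, Cdk6, Rb1, Gmnn, Pcna, Rrm1, Ccnb1, Cdc25c, Cenpf, Kif11, Nusap1 and Ttk) and 3 lower (Ccnd1, Ccne1 and Cdkn2c), beside 12.5% and 15.7% of all genes. Endothelial markers summed to 28.4, 13.7 and 72.2 FPKM in the epithelium libraries and to 90.3 to 102 FPKM in mesenchyme, and muscle markers to 140, 137 and 282 FPKM against 229 to 451 FPKM, with none of 8 called in either list. Of 9 chondrocyte and osteoblast markers 2 were lower in epithelium, none of 12 mesenchyme markers passed, and 11 of 12 epithelium markers were higher. These marker calls are from the fit that includes E13.5 epithelium replicate 3. At an unadjusted p under 0.05 in that fit, 5 of 8 endothelial and 4 of 8 muscle markers were lower in epithelium. So were 9 of 9 chondrocyte and osteoblast and 7 of 12 mesenchyme markers, and none of these 4 lists held a higher one. The part of these markers was not tested.

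A change of the tissue difference from E11.5 to E13.5 was tested on all 12 libraries, which the comparisons above share. None of the 48 genes passed over 22110 genes, where 0.0136% of all genes had a positive change and 0.190% a negative one. An unadjusted p under 0.05 was found for 17 positive and 2 negative changes, against 6.12% and 8.89% of all genes. limma called none, and DESeq2 called 2 positive (Cdc25c and Mki67) and 1 negative (Cdkn1a). All 13 replication genes and all 22 mitosis genes had a positive value, with medians of 0.27 and 0.42, against -0.02 over all genes. Of all 22110 genes 10709 had a positive value, and here too the signs are not independent. With E13.5 epithelium replicate 3 left out, 11 changes were positive (Ccne2, Cdk6, Cdc6, Gmnn, Cdc25c, Cenpe, Cenpf, Kif11, Mki67, Nusap1 and Ttk) and 2 negative (Ccnd1 and Cdkn2c), beside 4.20% and 9.21% of all genes.

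Of the G1 genes, Cdkn1a, Cdkn2c and Rb1 rose in the mesenchyme. In epithelium none of these genes passed between the stages with edgeR on all 6 libraries, whereas DESeq2 called all 3 higher at E13.5. Cdkn1a encodes p21, an inhibitor of cyclin-dependent kinases that p53 induces, and lies at chr17:29090976-29100727 (ENSMUSG00000023067, plus strand, mm10). It was at 0.952, 2.16 and 2.74 FPKM in E11.5 mesenchyme and at 6.39, 9.68 and 10 FPKM in E13.5 mesenchyme. The groups did not overlap, and the level rose by 2.14 ± 0.33 (SE) on the log2 scale, which is 4.42-fold (adjusted p = 0.00114). In epithelium it was at 5.32, 4.90 and 3.06 FPKM at E11.5 and at 7.08, 7.85 and 7.26 FPKM at E13.5, a log2 fold change of 0.74 ± 0.22 that did not pass (adjusted p = 0.0829) although the libraries did not overlap. Of the 48 genes it had the most negative interaction (-1.44 ± 0.44, adjusted p = 0.178, and 0.072 without E13.5 epithelium replicate 3). Its level in epithelium against mesenchyme at E11.5 was higher by 1.25 ± 0.35 on the log2 scale, which did not pass (adjusted p = 0.0871).

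Cdkn2c encodes p18, an inhibitor of Cdk4 and Cdk6 (chr4:109660876-109667189, ENSMUSG00000028551, minus strand). Its FPKM was 1.61, 1.56 and 1.84 in E11.5 mesenchyme and 3.84, 7.05 and 6.59 in E13.5 mesenchyme, a rise of 1.77 ± 0.23 on the log2 scale (3.41-fold, adjusted p = 0.000488). E13.5 mesenchyme replicate 1 was the lowest of its group for both inhibitors and still above every E11.5 library. Epithelium held 1.82, 1.95 and 1.43 FPKM of Cdkn2c at E11.5 and 2.93, 2.72 and 3.65 FPKM at E13.5 (log2 fold change 0.84 ± 0.23, adjusted p = 0.0694, and 0.69 ± 0.22 without E13.5 epithelium replicate 3, adjusted p = 0.0734). Between the tissues at E13.5 the log2 fold change was -0.88 ± 0.26 (adjusted p = 0.129), and it was -1.04 ± 0.27 with an adjusted p of 0.0253 without E13.5 epithelium replicate 3. The interaction was -0.97 ± 0.33 (adjusted p = 0.217) with that library and -1.12 ± 0.33 (adjusted p = 0.0459) without it. The RefSeq stretch of Cdkn2c printed above holds an E2F-like match and neither of the other motifs in the bases shown. Cdkn1b, which encodes the inhibitor p27, had group means between 8.28 ± 0.685 and 9.18 ± 0.507 FPKM, and its log2 fold change between the stages was 0.12 ± 0.10 in mesenchyme (adjusted p = 0.393) and 0.04 ± 0.11 in epithelium (adjusted p = 0.863).

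Rb1, the pocket protein that binds E2F factors (chr14:73183673-73325822, ENSMUSG00000022105, minus strand), rose in the mesenchyme. It was at 2.21, 1.92 and 2.02 FPKM at E11.5 and at 3.57, 3.37 and 3.82 FPKM at E13.5 (log2 fold change 0.77 ± 0.12, adjusted p = 0.00132). In epithelium it was at 2.61, 2.34 and 3.47 FPKM and then at 4.73, 4.95 and 4.17 FPKM, which did not overlap. That difference of 0.72 ± 0.18 on the log2 scale did not pass (adjusted p = 0.0573), and it passed without E13.5 epithelium replicate 3 (0.77 ± 0.19, adjusted p = 0.0371). Rb1 shares 8.11% of its exon bases with Rcbtb2 and 6.78% with Lpar6 on the opposite strand. E2f1, the activating factor that Rb1 restrains, went the other way in the mesenchyme, from 15, 16.9 and 18.7 FPKM to a mean of 12.4 ± 1.35 FPKM (SD, n = 3), with no overlap (-0.47 ± 0.10, adjusted p = 0.00706). The epithelium libraries of E2f1 did not overlap either, with 16.1, 15.2 and 13.3 FPKM at E11.5 and 10.4, 11.8 and 11.1 FPKM at E13.5 (-0.42 ± 0.13, adjusted p = 0.0842, and -0.43 ± 0.13 without E13.5 epithelium replicate 3, adjusted p = 0.0733).

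The D-type cyclins, which bind Cdk4 and Cdk6, did not pass in the same comparisons. Ccnd1 (chr7:144929931-144939925, ENSMUSG00000070348, minus strand) was at 82.5, 94.9 and 98.3 FPKM in E11.5 mesenchyme and at 63.1, 67 and 68.1 FPKM in E13.5 mesenchyme, a fall of 0.50 on the log2 scale (SE 0.08, adjusted p = 0.00108). In epithelium it was at 77.3, 76.4 and 62.4 FPKM at E11.5 and at 32, 24.8 and 60.2 FPKM at E13.5. All 3 E13.5 values were below the E11.5 ones, with replicate 3 close to them and the other 2 far below. The log2 fold change was -0.88 ± 0.32 (adjusted p = 0.135) with that library and -1.36 ± 0.16 (adjusted p = 0.00321) without it. Against mesenchyme at E13.5 it was -0.73 ± 0.31 (adjusted p = 0.214) with it and -1.21 ± 0.13 (adjusted p = 0.000773) without it, and the interaction was -0.42 ± 0.35 (adjusted p = 0.602) with it and -0.89 ± 0.17 (adjusted p = 0.00585) without it. Ccnd2 (chr6:127125162-127152193, ENSMUSG00000000184, minus strand) was at 52.6, 53.1 and 68.4 FPKM in E11.5 epithelium and at 40.5, 39.1 and 38.9 FPKM in E11.5 mesenchyme, higher in epithelium by 0.61 ± 0.13 on the log2 scale (1.52-fold, adjusted p = 0.032). Its adjusted p ranged from 0.00939 to 0.139 when single libraries were left out. Between the stages Ccnd2 did not pass in mesenchyme (0.15 ± 0.10, adjusted p = 0.261), although those libraries did not overlap. Nor did it in epithelium (0.23 ± 0.19, adjusted p = 0.498, and 0.38 ± 0.16 without E13.5 epithelium replicate 3, adjusted p = 0.146). In the E13.5 libraries Ccnd2 stood at 69.3, 83.2 and 52.1 FPKM in epithelium and at 48.4, 44.7 and 41.1 FPKM in mesenchyme, which did not overlap (0.62 ± 0.18, adjusted p = 0.122, and 0.77 ± 0.13 with an adjusted p of 0.0052 without E13.5 epithelium replicate 3). Ccnd3 had group means between 25.7 ± 4.89 and 31.8 ± 5.25 FPKM and passed in none of the comparisons, except between the stages in mesenchyme without E13.5 mesenchyme replicate 1, where it rose (adjusted p = 0.0404).

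The makeup of the D-type cyclins was read as the share of their summed FPKM, which is per length. Ccnd1 made up 57.3, 58.8 and 58.6% of the sum in E11.5 mesenchyme and 45.9, 46.1 and 46.9% in E13.5 mesenchyme. In E11.5 epithelium its share was 48.9, 48.3 and 41.4%, and in E13.5 epithelium it was 25.4, 18.5 and 42.4%. Ccnd2 made up 54.9 and 62.1% in E13.5 epithelium replicates 1 and 2 and 36.6% in replicate 3. The ratio of Ccnd1 to Ccnd2 was thus below 1 in those replicates (0.462 and 0.297) and in E11.5 epithelium replicate 3 (0.913), and between 1.16 and 2.53 in the other 9 libraries. The summed level of the 3 cyclins varied less, from 126 FPKM in E13.5 epithelium replicate 1 to 168 FPKM in E11.5 mesenchyme replicate 3.

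**Figure D3:**
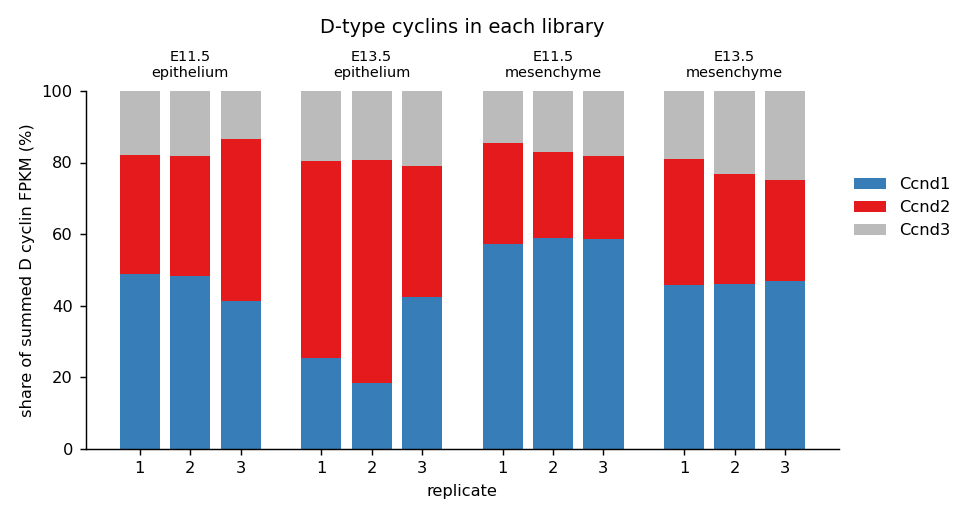
Share of Ccnd1, Ccnd2 and Ccnd3 (stacked bars, percent of the summed FPKM of the 3 cyclins) in each of the 12 libraries by group and replicate. The Ccnd1 part is smallest in E13.5 epithelium replicates 1 and 2, at 25.4 and 18.5%, and replicate 3 of that group has 42.4%.

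Cdk4, a kinase partner of the D-type cyclins (chr10:127063534-127067920, ENSMUSG00000006728, plus strand), was the G1 gene called lower in both tissues with edgeR on all libraries of each comparison. It was at 265, 273 and 220 FPKM in E11.5 epithelium and at 157, 175 and 151 FPKM in E13.5 epithelium (log2 fold change -0.65 ± 0.12, adjusted p = 0.027, and -0.61 ± 0.13 without replicate 3 of E13.5, adjusted p = 0.0222). Mesenchyme held 226, 239 and 269 FPKM and then 136, 160 and 182 FPKM (-0.65 ± 0.10, adjusted p = 0.00129). Stages did not overlap in either tissue, and the interaction was -0.04 ± 0.16 (adjusted p = 0.938). With single libraries left out the adjusted p of Cdk4 in epithelium reached 0.132. Ccnd1 and Ccne1, which fell in mesenchyme, were called lower in epithelium too with DESeq2, in 1 fit over all 12 libraries and without E13.5 epithelium replicate 3. Cdk6, the other partner, was low throughout, at 2.87, 2.82 and 3.66 FPKM in E11.5 epithelium and at 5.33, 6.17 and 3.58 FPKM in E13.5 epithelium, while all 6 mesenchyme libraries lay between 2.86 and 3.33 FPKM. E13.5 epithelium replicate 3 was the low library of its group, and the rise in epithelium was 0.69 ± 0.21 with it (adjusted p = 0.0915) and 0.87 ± 0.16 without it (adjusted p = 0.0126). Against mesenchyme at E13.5, Cdk6 had the smallest p of the G1 genes, with 0.76 ± 0.20 (adjusted p = 0.1) and, without that library, 0.94 ± 0.12 (adjusted p = 0.00158).

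Ccne1, the cyclin that activates Cdk2 at the start of S phase (chr7:38097984-38107534, ENSMUSG00000002068, minus strand), was at 27.3, 33 and 35 FPKM in E11.5 mesenchyme and at 17.5, 21.7 and 22.1 FPKM in E13.5 mesenchyme, the largest fall of a G1 gene there (-0.66 ± 0.11, adjusted p = 0.00204). In E11.5 epithelium it was at 23.7, 24.3 and 20.6 FPKM, below all 3 mesenchyme libraries (-0.42 ± 0.10, adjusted p = 0.0478, and 0.026 to 0.206 with single libraries left out). E13.5 epithelium held 15.6, 13.6 and 17.7 FPKM, which was below every E11.5 epithelium library (-0.55 ± 0.14, adjusted p = 0.0605, and -0.66 ± 0.13 with an adjusted p of 0.0179 without replicate 3). Its relative Ccne2 fell in mesenchyme from between 9.24 and 10.5 FPKM to between 7.25 and 7.56 FPKM (-0.42 ± 0.11, adjusted p = 0.0149), a call that was lost without E13.5 mesenchyme replicate 2 (adjusted p = 0.056). Cdk2 itself fell there from between 20.7 and 22.3 FPKM to between 15.7 and 16.8 FPKM (-0.44 ± 0.08, adjusted p = 0.00226).

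**Figure D4:**
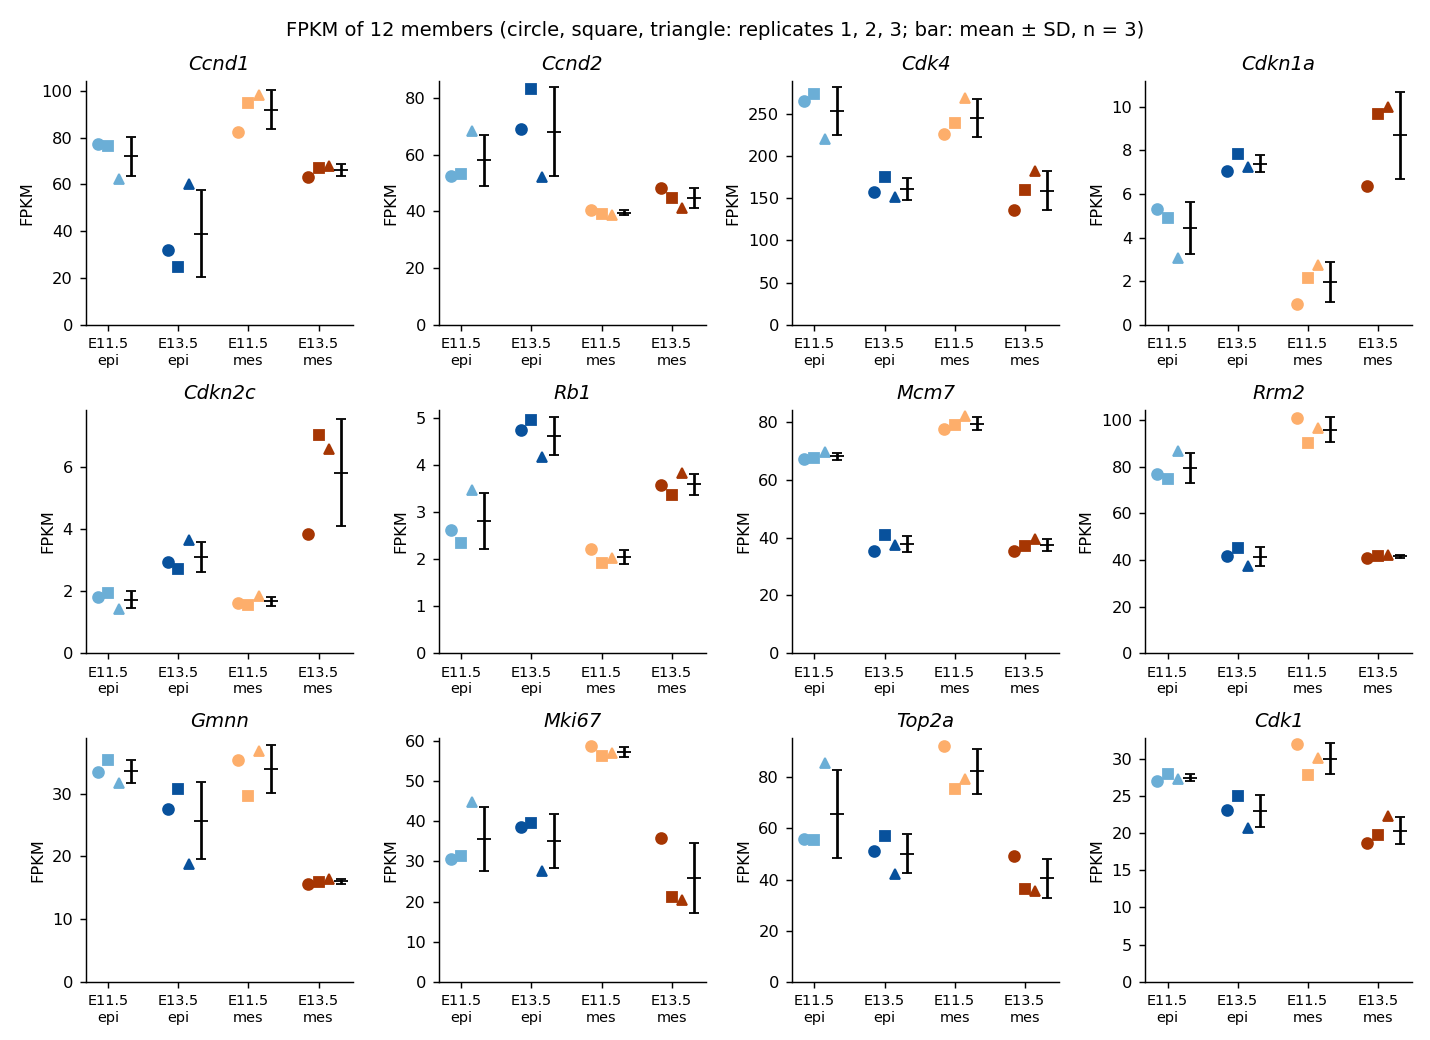
FPKM (vertical axes, starting at 0) of 12 of the genes in the 4 groups, with 1 point per library (circle, square and triangle for replicates 1, 2 and 3) and a bar for the mean ± SD of 3 libraries. Mcm7 and Rrm2 fall in both tissues and Gmnn falls to 15.6 to 16.4 FPKM in E13.5 mesenchyme. Ccnd1 drops most in E13.5 epithelium replicates 1 and 2. The means of Cdkn1a and Cdkn2c are highest in E13.5 mesenchyme, where the Cdkn1a points overlap those of E13.5 epithelium.

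Among the replication genes, the largest falls in mesenchyme were those of Rrm2, Gmnn and Mcm7. Rrm2 encodes the subunit of ribonucleotide reductase that is made in S phase (chr12:24708241-24714146, ENSMUSG00000020649, plus strand). It was at 101, 90.0 and 96.4 FPKM in E11.5 mesenchyme and at 40.8, 41.5 and 42.3 FPKM in E13.5 mesenchyme, a 2.36-fold fall (log2 fold change -1.24 ± 0.09, adjusted p = 2.55e-05). In epithelium it was at 76.8, 74.5 and 86.6 FPKM and then at 41.7, 45.3 and 37.3 FPKM (-0.94 ± 0.12, adjusted p = 0.0116). The stages did not overlap in either tissue, and at E13.5 the tissues did, with a difference of 0.02 ± 0.10. Rrm1, the other subunit of the enzyme, was at 38.4, 31 and 33 FPKM in E11.5 mesenchyme and at 20.9, 19.7 and 18.7 FPKM in E13.5 mesenchyme (-0.82 ± 0.12, adjusted p = 0.000826). The epithelium libraries of Rrm1 overlapped between the stages, with 27.7, 26.6 and 38.5 FPKM at E11.5 and 27.6, 30.6 and 21.2 FPKM at E13.5 (-0.23 ± 0.19, adjusted p = 0.507). Without E13.5 epithelium replicate 3 the epithelial changes were -0.88 ± 0.12 for Rrm2 (adjusted p = 0.00502) and -0.10 ± 0.18 for Rrm1 (adjusted p = 0.762). With other single libraries left out the adjusted p of Rrm2 in epithelium reached 0.0751.

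Mcm2 to Mcm7 form the hexamer that is the core of the replicative helicase, and their summed level was lower at E13.5 in both tissues. Their summed level was 342, 343 and 372 FPKM in E11.5 epithelium and 235, 265 and 239 FPKM in E13.5 epithelium, and 397, 382 and 414 FPKM in E11.5 mesenchyme and 237, 238 and 235 FPKM in E13.5 mesenchyme. In epithelium the highest of the 6 was 1.93, 1.97 and 1.98 times the lowest at E11.5 and 2.27, 2.07 and 2.22 times at E13.5. In mesenchyme it was 2.02, 2.06 and 1.95 times and then 2.2, 2.04 and 1.95 times. These ratios did not overlap between the stages in epithelium, and they did in mesenchyme. All 6 fell in mesenchyme, by 0.49 (Mcm6) to 1.12 (Mcm7) on the log2 scale, and Mcm2, Mcm3, Mcm5 and Mcm7 fell in epithelium. Mcm7 (chr5:138164583-138172422, ENSMUSG00000029730, minus strand) was at 77.5, 78.8 and 81.9 FPKM in E11.5 mesenchyme and at 35.4, 37 and 39.5 FPKM in E13.5 mesenchyme (-1.12 ± 0.08, adjusted p = 1.8e-05). In epithelium it was at 67.3, 67.4 and 69.6 FPKM and then at 35.4, 40.9 and 37.5 FPKM (-0.84 ± 0.10, adjusted p = 0.0109). Mcm3 fell there from between 56.4 and 62.9 FPKM to between 36.4 and 39.7 FPKM (-0.63 ± 0.10, adjusted p = 0.021). Mcm2, a subunit widely used as a marker of cells licensed to divide, was at 36.2, 35.7 and 36.3 FPKM in E11.5 epithelium and at 23.6, 27 and 22.6 FPKM in E13.5 epithelium (-0.56 ± 0.11, adjusted p = 0.0282), and in mesenchyme it fell from 38.5, 38.3 and 41.9 FPKM to 22.7, 24 and 24.5 FPKM (-0.77 ± 0.08, adjusted p = 0.000117). Without E13.5 epithelium replicate 3 the epithelial changes of Mcm7, Mcm3 and Mcm2 were -0.85, -0.66 and -0.52, and all 3 passed. With other single libraries left out their adjusted p reached 0.0744, 0.111 and 0.141. Mcm4 and Mcm6 had the smallest changes of the 6 in both tissues.

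Loading of the helicase needs Cdc6 and Cdt1, and Gmnn (geminin) binds Cdt1 and blocks loading outside G1. Gmnn (chr13:24751845-24761923, ENSMUSG00000006715, minus strand) was at 35.4, 29.7 and 36.9 FPKM in E11.5 mesenchyme and at 15.6, 15.9 and 16.4 FPKM in E13.5 mesenchyme (-1.12 ± 0.11, adjusted p = 0.000104). In epithelium it was at 33.5, 35.4 and 31.7 FPKM at E11.5 and at 27.6, 30.7 and 18.8 FPKM at E13.5 (-0.39 ± 0.18, adjusted p = 0.237, and -0.21 ± 0.12 without replicate 3 of E13.5, adjusted p = 0.264). Every E13.5 epithelium library was above the 3 E13.5 mesenchyme libraries, with replicate 3 the nearest to them. Of the replication genes it had the smallest p between the tissues at E13.5 (0.70 ± 0.18, adjusted p = 0.0995, and 0.87 ± 0.11 with an adjusted p of 0.0014 without that library) and for the interaction (0.69 ± 0.22, adjusted p = 0.188, and 0.87 ± 0.15 with an adjusted p of 0.00409 without it). Cdt1 fell in mesenchyme from 19.2, 17.3 and 21 FPKM to 8.91, 12.5 and 12.5 FPKM (-0.79 ± 0.14, adjusted p = 0.00246), and its epithelium values of 16.8, 16.8 and 14 FPKM at E11.5 and 13, 14.5 and 10.9 FPKM at E13.5 overlapped (-0.31 ± 0.15, adjusted p = 0.224, and -0.22 ± 0.13 without that library, adjusted p = 0.31). Cdc6 held closely together within groups, with 10.6, 10.8 and 10.9 FPKM in E11.5 mesenchyme and 8.21, 8.09 and 8.18 FPKM in E11.5 epithelium. It was the replication gene with the smallest p between the tissues at E11.5 (-0.35 ± 0.08, adjusted p = 0.0549), and it fell in mesenchyme to 6.10, 5.88 and 5.69 FPKM (-0.89 ± 0.09, adjusted p = 0.000122).

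At the fork itself, Pcna, the clamp that holds the polymerase on DNA, was at 161, 141 and 148 FPKM in E11.5 mesenchyme and at 92.6, 87.2 and 89.5 FPKM in E13.5 mesenchyme (-0.77 ± 0.09, adjusted p = 0.000364). Epithelium held 139, 140 and 153 FPKM and then 113, 116 and 95.3 FPKM, which did not overlap (-0.41 ± 0.11, adjusted p = 0.0687, and -0.34 ± 0.10 without E13.5 epithelium replicate 3, adjusted p = 0.0672). Cdc45, which joins the Mcm hexamer to form the active helicase, fell in both tissues, though its adjusted p in epithelium reached 0.174 with single libraries left out. Its FPKM went from between 15.5 and 16.1 to between 8.44 and 9.08 in mesenchyme (-0.87 ± 0.08, adjusted p = 0.000111) and from between 13.7 and 15 to between 8.50 and 10.6 in epithelium (-0.55 ± 0.13, adjusted p = 0.0407, and -0.48 ± 0.11 without that library, adjusted p = 0.0315).

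The mitosis genes all fell in the mesenchyme, by between 0.52 (Ccna2 and Nusap1) and 1.32 (Cenpe) on the log2 scale, and were less alike in the epithelium. Cenpe, the kinesin that draws chromosomes to the spindle equator (chr3:135212537-135273611, ENSMUSG00000045328, plus strand), was at 17, 15 and 16.1 FPKM in E11.5 mesenchyme and at 8.87, 5.36 and 5.43 FPKM in E13.5 mesenchyme (2.50-fold lower, adjusted p = 0.00096). Mki67 (chr7:135689784-135716361, ENSMUSG00000031004, minus strand), whose values are given above, fell by 1.18 on the log2 scale (SE 0.21, adjusted p = 0.00216). In both genes E13.5 mesenchyme replicate 1 was the high library of its group and still below every E11.5 mesenchyme library. Bub1, a kinase of the spindle checkpoint, went from 31.2, 24.5 and 25.4 FPKM to 14.8, 10.9 and 11.3 FPKM with the same library highest (-1.16 ± 0.16, adjusted p = 0.000658). Top2a went from 92.4, 75.5 and 79.3 FPKM to 49.3, 36.3 and 35.4 FPKM (-1.06 ± 0.16, adjusted p = 0.000903), and Aurkb from 30.7, 31 and 33.6 FPKM to 17.8, 20.3 and 20.1 FPKM (-0.74 ± 0.09, adjusted p = 0.000309). Cdc25c, the phosphatase that activates Cdk1, and Ttk, another checkpoint kinase, fell by 1.16 and 1.15 on the log2 scale.

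In epithelium, Mki67 was at about the same level at both stages, with overlapping libraries and a difference of -0.02 ± 0.20 on the log2 scale (adjusted p = 0.971). The values of Cenpf (0.00 ± 0.26), Nusap1 (-0.07 ± 0.15) and Kif11 (-0.09 ± 0.21) were as close to 0, with overlapping libraries. Without E13.5 epithelium replicate 3 the values were 0.12 ± 0.18 for Mki67, 0.21 ± 0.20 for Cenpf, 0.06 ± 0.11 for Nusap1 and 0.07 ± 0.18 for Kif11, so that Mki67, Nusap1 and Kif11 turned in sign, and none of the 4 passed. A p that misses the threshold does not show that these levels were the same. The libraries of Top2a overlapped too, with 55.9, 55.4 and 85.4 FPKM at E11.5 and 51.2, 57.1 and 42 FPKM at E13.5 (-0.39 ± 0.20, adjusted p = 0.272, and -0.29 ± 0.21 without that library, adjusted p = 0.401). For 14 of the 22 mitosis genes replicate 3 was the highest of E11.5 epithelium and the lowest of E13.5 epithelium, as with Mki67 (44.9 and 27.5 FPKM) and Kif11 (25.1 and 14.2 FPKM). That order was not counted in the other classes or over all genes, so it is not shown to be particular to mitosis genes. For Mki67 the interaction had a positive value of 1.12 ± 0.32 (adjusted p = 0.157), and of 1.27 ± 0.31 (adjusted p = 0.0207) without E13.5 epithelium replicate 3. At E11.5 it was the mitosis gene with the smallest p between the tissues (-0.64 ± 0.16, adjusted p = 0.0601).

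7 mitosis genes fell in both tissues, and they include kinases of the spindle poles and the cofactor of the anaphase-promoting complex. Aurka, the centrosome kinase (chr2:172356190-172370535, ENSMUSG00000027496, minus strand), was at 32.8, 34.6 and 30.1 FPKM in E11.5 epithelium and at 18.1, 20.8 and 17.3 FPKM in E13.5 epithelium (-0.80 ± 0.12, adjusted p = 0.0171), and in mesenchyme it went from 38.8, 38.8 and 44.1 FPKM to 19.2, 20.3 and 23.2 FPKM (-0.99 ± 0.09, adjusted p = 8.66e-05). Plk1, which acts at entry into mitosis and at the spindle, was at 53.4, 52.3 and 47.4 FPKM in E11.5 epithelium and at 31.9, 34.2 and 26.6 FPKM in E13.5 epithelium (-0.73 ± 0.13, adjusted p = 0.0226). In mesenchyme it went from 61.3, 58.6 and 66.4 FPKM to 29.6, 36.3 and 38.7 FPKM (-0.86 ± 0.11, adjusted p = 0.000414). Cdc20, the cofactor of the anaphase-promoting complex, fell in epithelium from 82.8, 86.4 and 76.3 FPKM to 49.9, 64.2 and 44.7 FPKM (-0.63 ± 0.15, adjusted p = 0.0473) and in mesenchyme from between 85.4 and 94.3 FPKM to between 42.8 and 52.7 FPKM (-0.89 ± 0.10, adjusted p = 0.000206). None of the 6 stage comparisons of these 3 genes had overlapping libraries. Birc5, survivin of the chromosomal passenger complex, was at 31.2, 31.3 and 27.4 FPKM and then at 19.5, 20.9 and 19.9 FPKM in epithelium (-0.57 ± 0.11, adjusted p = 0.0276) and went from 30.7, 33 and 36.8 FPKM to 19.8, 20.8 and 21.9 FPKM in mesenchyme (-0.71 ± 0.08, adjusted p = 0.000262). Tpx2, which activates Aurka on the spindle, Ccnb2, a B-type cyclin, and Mybl2, the B-Myb factor, fell in epithelium by 0.56, 0.51 and 0.59 on the log2 scale. All 7 passed in epithelium without E13.5 epithelium replicate 3 too, with -0.75 for Aurka, -0.64 for Plk1, -0.53 for Cdc20 and -0.58 for Birc5. These calls were lost when some other single libraries were left out. The adjusted p then reached 0.0996 for Aurka, 0.118 for Plk1, 0.197 for Cdc20 and 0.14 for Birc5.

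Cdk1, the kinase that drives mitosis (chr10:69335146-69352938, ENSMUSG00000019942, minus strand), was at 27, 27.9 and 27.2 FPKM in E11.5 epithelium and at 23.1, 25 and 20.7 FPKM in E13.5 epithelium, which did not overlap (-0.26 ± 0.11, adjusted p = 0.185). In mesenchyme it fell from 32, 27.8 and 30.1 FPKM to 18.7, 19.7 and 22.3 FPKM (-0.60 ± 0.10, adjusted p = 0.00195). Its cyclin Ccnb1 was at 54.3, 42.6 and 45.3 FPKM in E11.5 mesenchyme and at 28.5, 26.1 and 27.8 FPKM in E13.5 mesenchyme (-0.82 ± 0.12, adjusted p = 0.000968). The epithelium libraries of Ccnb1 overlapped between the stages, with 37.2, 38.1 and 51.7 FPKM and then 37, 40.0 and 28.1 FPKM (-0.28 ± 0.18, adjusted p = 0.388). Without E13.5 epithelium replicate 3 the epithelial changes were -0.20 ± 0.10 for Cdk1 and -0.15 ± 0.17 for Ccnb1, and neither passed. Of the mitosis genes Ttk had the smallest p between the tissues at E13.5, with 8.12, 8.30 and 5.68 FPKM in epithelium and 5.63, 4.91 and 4.89 FPKM in mesenchyme (0.53 ± 0.17, adjusted p = 0.139, and 0.68 ± 0.12 with an adjusted p of 0.00634 without E13.5 epithelium replicate 3). The other mitosis genes were Bub1b of the spindle checkpoint, Ccna2, the cyclin of S phase and G2, Cenpf of the kinetochore, Nusap1 of the spindle, and the kinesins Kif11 and Kif23 of the spindle and of cell division, and in mesenchyme they fell by 0.52 to 0.99 on the log2 scale.

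Other genes of the same pathways were counted from lists of related genes. In mesenchyme 34 of 37 other replication genes fell and none rose, with a median log2 fold change of -0.70, and the largest falls were those of Mcm10 (-1.32), the origin factor Orc1 (-1.20), the clamp loader subunit Rfc4 (-1.09) and the helicase subunit Gins1 (-1.08). 38 of 42 other mitosis genes fell and none rose, with a median of -0.85, led by the cyclin Ccnf (-1.35), Cdca2 (-1.26), Kif20b (-1.24) and the condensin subunit Ncapd2 (-1.15). In epithelium 5 of the 37 and 13 of the 42 fell, and none rose, with medians of -0.42 and -0.40. The largest epithelial falls were those of Ccnf (-0.95) and Kif22 (-0.93). Shares of all genes that moved in these comparisons are those given above for each tissue.

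Of 14 other pocket proteins, E2F and DP factors, 10 fell in mesenchyme and 1 rose. The gene that rose was Rbl2, the pocket protein p130 of resting cells, from 1.63, 1.65 and 2.00 FPKM to 4.58, 3.97 and 4.16 FPKM (log2 fold change 1.24 ± 0.11, adjusted p = 8.19e-05). It rose in epithelium as well, from 1.58, 1.71 and 1.76 FPKM to 3.80, 4.02 and 4.30 FPKM (1.26 ± 0.14, adjusted p = 0.00796), and replicate 3 was not low there. The largest falls in mesenchyme were E2f5 (-1.03), E2f3 (-0.88), Foxm1 (-0.84) and Tfdp2 (-0.70), and E2f5 (-1.18) and Foxm1 (-0.54) fell in epithelium. Cdkn1c, the inhibitor p57, was the only one of 5 other inhibitors to rise in mesenchyme, from 362, 527 and 555 FPKM to 592, 838 and 861 FPKM (0.64 ± 0.17, adjusted p = 0.0148), and its levels are far above those of Cdkn1a. Cdkn2b was higher in E11.5 epithelium (1.22, 1.34 and 1.05 FPKM) than in E11.5 mesenchyme (0.296, 0.193 and 0.484 FPKM), by 1.93 ± 0.37 on the log2 scale (adjusted p = 0.023).

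Among 9 Myc factors, which act on growth and on entry into the cycle, Mycn and Myc moved in opposite directions in both tissues. Mycn fell from 19.6, 16.7 and 18 FPKM to 2.91, 4.52 and 3.97 FPKM in mesenchyme (-2.28 ± 0.17, adjusted p = 3.24e-05) and from 14.3, 12.7 and 11.6 FPKM to 5.86, 6.43 and 3.31 FPKM in epithelium (-1.31 ± 0.25, adjusted p = 0.0278). Myc rose from 5.02, 5.68 and 7.02 FPKM to 10.8, 14 and 11.7 FPKM in mesenchyme (1.02 ± 0.14, adjusted p = 0.000752) and from 6.56, 7.05 and 4.49 FPKM to 12.8, 14.9 and 10.1 FPKM in epithelium (1.05 ± 0.22, adjusted p = 0.0343). Of 16 p53 target genes other than Cdkn1a, 5 rose and 2 fell in mesenchyme, beside 22% and 17% of all genes. In epithelium 3 rose and 1 fell, beside 5.47% and 3.01% of all genes. Ccng1 and Perp rose in both tissues and Gtse1, which is itself a gene of G2, fell in both. Ccng1 went from 6.48, 6.85 and 6.39 FPKM to 11.3, 11.7 and 12 FPKM in mesenchyme (0.80 ± 0.09, adjusted p = 0.000287). Perp is also a desmosome gene of epithelia, at 191, 242 and 46 FPKM in E13.5 epithelium against 6.77 to 9.39 FPKM in E13.5 mesenchyme. The largest rise in mesenchyme was that of Fas (2.62 ± 0.47), at 0.0519 to 0.139 FPKM at E11.5 and 0.467 to 0.825 FPKM at E13.5.

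**Figure D5:**
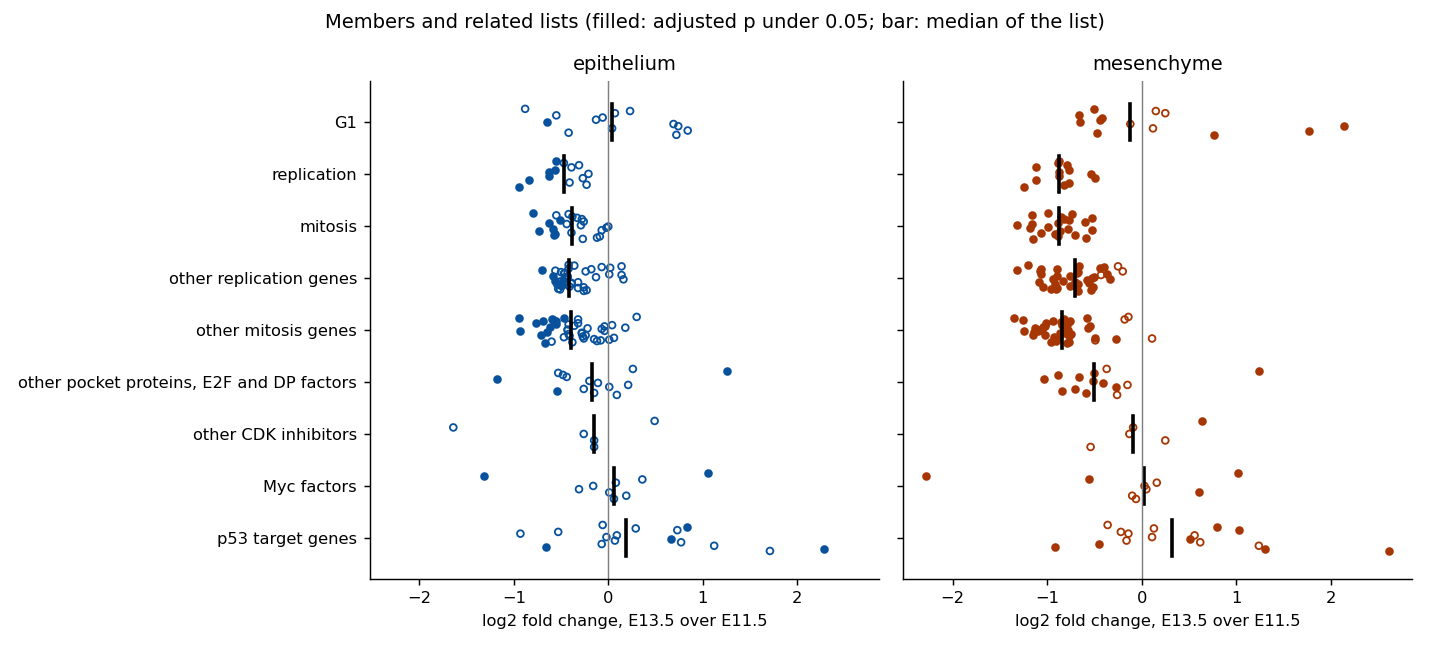
Log2 fold change from E11.5 to E13.5 (horizontal axes) of the 3 classes and of the related lists (rows, 1 point per gene, bar at the median), in epithelium and mesenchyme, filled where the adjusted p is under 0.05. In mesenchyme the other replication and other mitosis lists centre at -0.70 and -0.85, and the inhibitor, Myc and p53 lists spread to both sides of 0.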

How the data were processed

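RNA-seq of mouse dental epithelium and mesenchyme was read from the 1 deposited table. According to the study's methods and labels, oligo(dT) libraries were sequenced as read pairs, and the reads were trimmed with Cutadapt 1.9. HISAT2 2.0.4 and StringTie 1.3.4d are listed beside edgeR and mm10 in the processing notes of the submitters. The FPKM values were deposited by the authors, scaled to gene length and mapped fragments. Beside them stand whole-number counts, which were treated here as estimated counts, computed by the authors from coverage and then rounded, and entered the tests as deposited. Their totals exceed the number of reads that the study lists for each library, so a count is not 1 read pair. Totals are 70134554 to 79349382 per library, and all errors rest on the spread between the 3 libraries of a group. How reads of near-identical copies were shared is not given in the sources used here.

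Groups and replicate numbers follow the sample labels. Genes were tested with edgeR 4.0.16 in R 4.3.3 (filterByExpr, TMM, glmQLFit and glmQLFTest), each comparison on its own 6 libraries and the interaction on all 12, with Benjamini-Hochberg adjustment over all genes tested and an adjusted p under 0.05 as the call. Standard errors were taken as the size of the log2 fold change over the square root of F. The steps were tested on simulated data of the mesenchyme stage comparison only, with a common dispersion for all genes and no deviating library. That test cannot show how the steps behave in the epithelium comparisons. Alternatives were other scalings, no filter on low counts, DESeq2 1.42.0, limma 3.58.1 on log2(FPKM + 0.5) or log2(FPKM + 1) with a minimum mean of 0.5 FPKM in a group or none, a replicate block, the libraries without a number as a covariate, 1 fit over all 12 libraries and each library left out in turn. The fit over 12 libraries with that covariate was added after seeing the data. The 48 genes, the classes and the lists were chosen with earlier results of these data known. Named genes are the 3 markers, the D-type cyclins, the inhibitors, Rb1, E2f1, Mcm2, Pcna, Rrm2, Gmnn, Cdt1, Cdk1, Ccnb1, Plk1 and Birc5, and, per comparison and class, up to 3 called genes per direction with the largest fold change or, where none was called, the 1 with the smallest p, with up to 4 called genes per direction from each related list. Any other gene named with values, such as Rrm1, Cdk6 at other comparisons or Kif11, was chosen after its values were seen.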

Additional observations from a re-analysis of the deposited data

Results flagged for a closer look

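Cdc25c, the phosphatase that activates Cdk1, was in opposite order between the tissues at the stages. At E11.5 all epithelium libraries (6.34, 6.90 and 7.07 FPKM) were below all mesenchyme libraries (8.16, 7.73 and 8.83 FPKM), and at E13.5 all epithelium libraries (5.51, 5.65 and 3.86 FPKM) were above all mesenchyme libraries (3.70, 3.75 and 3.82 FPKM). E13.5 epithelium replicate 3 was above the highest mesenchyme library by a small margin. The test of the change itself gave 0.69 ± 0.19 on the log2 scale, which did not pass with edgeR (adjusted p = 0.146). It passed without E13.5 epithelium replicate 3 (0.83 ± 0.13, adjusted p = 0.00246), with 4.20% of all genes positive in that fit. Cdc25c shares 12.7% of its exon bases with Gm3550 on the opposite strand.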

How the results depend on the processing

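No call of a single gene changed direction under any alternative. Of the single values under the alternatives 4160 kept their side of the threshold, 134 newly passed and 122 no longer passed. In mesenchyme 43 to 45 of the 48 genes were called between the stages with single libraries left out, 42 in 1 fit over all 12 libraries and 43 to 45 otherwise, and 41 of the 44 calls held in all 17 alternatives (the exceptions were Ccnd1, Ccne2 and E2f1). None of the other calls held in every alternative. In epithelium 0 to 18 genes were called with single libraries left out, 9 with no filter on low counts, 9 with limma and no filter and 26 in 1 fit over all 12 libraries. DESeq2 called 17 lower and 3 higher in epithelium. Between the tissues at E11.5 the range with single libraries left out was 0 to 15, and the count was 0 with no filter, 0 with limma on log2(FPKM + 0.5), 1 with limma and no filter, 5 with DESeq2, 24 with the libraries without a number as a covariate, 0 in 1 fit over all 12 libraries and 1 in that fit with the covariate. At E13.5 the range was 0 to 15, with 4 genes in DESeq2, 4 in 1 fit over all 12 libraries and 6 in that fit with the covariate. For the interaction it was 0 to 13, with 3 in DESeq2. The causes were not tested.

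Replicate numbers did not meet the rule for paired samples (every pair over 0.1): deviations of libraries with the same label number correlated at -0.169 to 0.109, with 1 of 18 pairs over 0.1, and those with the same number in the library name at -0.059 to 0.262, with 3 of 18 over 0.1. These 3 pairs all join libraries without a number, and E13.5 epithelium replicate 3 is in none of them. With a replicate block the count was 0 between the tissues at E11.5, 0 at E13.5, 0 in epithelium, 45 in mesenchyme and 0 for the interaction. By the number in the library name the replicate block gave 14 at E11.5, 0 at E13.5, 0 in epithelium, 45 in mesenchyme and 0 for the interaction.

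With 3 libraries a group, the spread between them, which the 4 libraries without a number widen, sets the precision. Stage and piece dissected cannot be told apart, strand is not stated, and bulk RNA does not separate the share of dividing cells from their RNA content.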
